A study of Homo sapiens with 4 samples.

Results

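The genes described here are 10 of the 19974 rows in each deposited table: the receptors of transforming growth factor beta (TGF-β), TGFBR1 and TGFBR2, the signal carriers SMAD2, SMAD3, SMAD4, SMAD6 and SMAD7, the ligases SMURF1 and SMURF2, and the target gene ID1. TGF-β signals through a short chain of proteins. A ligand joins a pair of membrane kinases, TGFBR2 and TGFBR1, and TGFBR1 then phosphorylates the receptor-activated SMADs, SMAD2 and SMAD3. These bind SMAD4, the SMAD shared with the bone morphogenetic protein (BMP) branch, and enter the nucleus to act on target genes. SMAD6 and SMAD7 are inhibitory SMADs, SMURF1 and SMURF2 are ubiquitin ligases that mark receptors and SMADs for degradation, and ID1 is a helix-loop-helix protein known as a direct target of the BMP branch. In the colon the pathway restrains epithelial growth, and colorectal cancers often carry defects in its receptors or in SMAD4.

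The 10 genes were taken by symbol, and each symbol was found in all of the 4 libraries. They were chosen by role, and with their values in si-152 against si-NC already known, so their own differences are a description. The standard errors and calls given for them below carry no p and support nothing. HCT116, a line grown from a human colorectal carcinoma, has microsatellite instability, and tumours of that kind often lose TGFBR2 function through a frameshift in its coding sequence. HCT116 cells were transfected with 100 nM of a non-targeting control siRNA (si-NC) or with 100 nM of siRNA against the long noncoding RNA LINC00152 (si-152) for 36 h, with 2 independent replicates in each group, and total RNA was sequenced. All libraries came from the same line, and the comparison asked which mRNAs differ once LINC00152 is suppressed. LINC00152 itself could not be analysed here, since 0 rows carry the symbol LINC00152, CYTOR or MIR4435-2HG. Its suppression could therefore not be checked in these libraries.

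Levels are in FPKM, reads scaled both to transcript length and to library size, a unit read from the values themselves since the tables name none. Levels of different genes can be set side by side only if that reading holds, which could not be checked against read counts. The levels summed to between 424754 and 534311 per library, with between 14589 and 14686 genes above 0. The number of reads behind them is unknown. Of 8 epithelial markers, 7 were above 1 FPKM, led by KRT19, which lay between 877 and 1378 FPKM in the 4 libraries. The summed epithelial level was 3242 to 3766 FPKM in si-NC and 2552 to 3186 FPKM in si-152. Of 7 fibroblast markers only COL1A1 passed 1 FPKM, at 7.02 to 7.98 FPKM, and COL1A2, DCN and PDGFRA were listed at 0 in all libraries. The summed fibroblast level was 7.11 to 8.13 FPKM in si-NC and 7.19 to 7.95 FPKM in si-152. Of 8 leukocyte and endothelial markers 0 passed 1 FPKM, and the highest, LYZ, reached 0.357 FPKM. In bulk RNA, fewer cells that express a gene and less of its RNA per cell cannot be told apart.

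The 10 genes differed widely in level. ID1 stood far above the rest, with a median of 501.0 FPKM over the 4 libraries, above 98.8% of the 11222 genes that reached at least 1 FPKM in at least 2 libraries. SMURF2 followed at a median of 37.1 FPKM, then SMAD3 at 32.8, SMAD2 at 19.2 and SMURF1 at 8.38 FPKM. SMAD4, TGFBR1 and TGFBR2 lay close together, at medians of 6.16, 5.97 and 5.39 FPKM. The inhibitory SMADs were lowest, with SMAD6 at 3.98 FPKM and SMAD7 at 1.70 FPKM, a level above only 7.76% of the tested genes. Most neighbours in this order kept it in 4 of 4 libraries. The exceptions were SMURF2 over SMAD3, which held in 3 of 4 libraries, TGFBR1 over TGFBR2, which held in 2 of 4, and TGFBR2 over SMAD6, which held in 3 of 4.

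**Figure D1:**
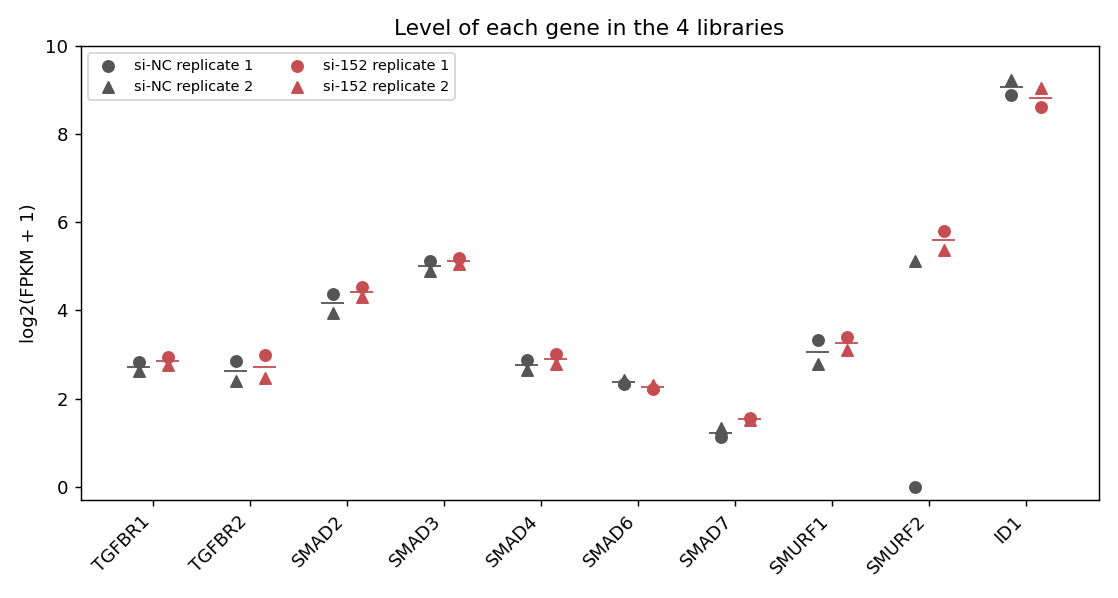
Level of the 10 genes in each library, as log2(FPKM + 1). Grey marks are si-NC and red marks si-152, circles are replicate 1 and triangles replicate 2, and short lines are group means, left out where a library is listed at 0. ID1 lies far above the others, and SMURF2 is at 0 in si-NC replicate 1 and between 33.8 and 55.0 FPKM elsewhere.

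In si-152, 8 of the 10 genes were higher than in si-NC in both same-numbered pairs of libraries (replicate 1 with replicate 1, replicate 2 with replicate 2), namely TGFBR1, TGFBR2, SMAD2, SMAD3, SMAD4, SMAD7, SMURF1 and SMURF2. SMAD6 and ID1 were lower in both. Over all 11222 tested genes, 35.6% were higher in both pairs and 27.3% lower in both. With size factors or quantile normalization in place of the deposited scale, TGFBR2 turned in pair 2, to -0.0098 and -0.04 on the log2 scale, which left 7 genes higher and 2 lower in both pairs. The differences were small. Without SMURF2, the log2 differences in log2(FPKM + 1) ran from -0.24 for ID1 to 0.31 for SMAD7, with a median of 0.13 over these 9 genes against 0.02 over all tested genes. This scale understates differences of low genes such as SMAD7.

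Over all genes, the difference between groups was set against the spread between libraries with limma's moderated test, fitted over all 11222 genes on log2(FPKM + 1). A gene was called when its unadjusted p was under 0.05 and its fold change, taken from FPKM + 1, above 1.5. The study used limits of the same size on read counts with DESeq, and a stricter fold change for its pathway analysis. Since the 10 genes were chosen with these values known, their counts are given as a description only. Of the 10 genes, 1 met the call, SMURF2, as higher in si-152, where 0.597% of all tested genes were called higher. With the 0 listed for SMURF2 in si-NC replicate 1 treated as missing, or without that library, 0 of the 10 genes met it. None was called lower, against 1.06% of all tested genes. At an unadjusted p under 0.05 alone the count was also 1, where 4.38% of all tested genes passed. At an adjusted p under 0.05 by limma it was 0, where 0.0178% passed. That share moved with the processing, and 0 of all genes passed with listed zeros treated as missing. With 2 libraries against 2, an exact two-sided permutation test of a single gene cannot go below 0.333.

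**Figure D2:**
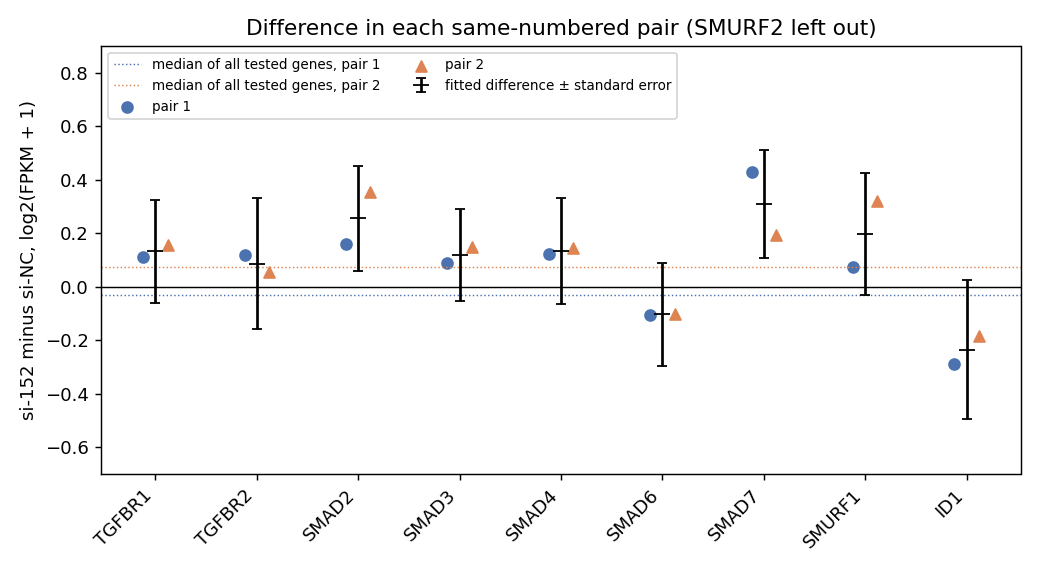
Difference of si-152 minus si-NC in log2(FPKM + 1) for 9 genes, with circles for pair 1 and triangles for pair 2. Black bars are the fitted difference with its standard error, and dotted lines are the medians of all tested genes, -0.03 in pair 1 and 0.07 in pair 2. SMAD6 and ID1 lie below 0 in both pairs and the other 7 genes above it.

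The receptors showed little difference. TGFBR1, the type I receptor kinase (ENSG00000106799.12), is encoded on chromosome 9 (99104038 to 99154192, plus strand, GRCh38 here and for the other genes). It had 6.10 and 5.14 FPKM under si-NC and 6.66 and 5.84 FPKM under si-152, so the groups overlapped on the deposited scale. Its fitted log2 difference was 0.13, with a standard error of 0.19. TGFBR2, the type II receptor kinase that binds ligand first (ENSG00000163513.17), is encoded on chromosome 3 (30606502 to 30694142, plus strand). It had 6.28 and 4.30 FPKM under si-NC and 6.90 and 4.50 FPKM under si-152. Replicate 1 stood above replicate 2 in both groups by more than the groups differed, and the log2 difference was 0.09 with a standard error of 0.24. The ratio of TGFBR2 to TGFBR1 was 1.03 and 0.836 in si-NC and 1.04 and 0.772 in si-152.

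The receptor-activated SMADs and SMAD4 were each higher under si-152 in both pairs, with groups that overlapped on the deposited scale. SMAD2 (ENSG00000175387.15, chromosome 18, 47808957 to 47931146, minus strand) had 19.7 and 14.5 FPKM under si-NC and 22.1 and 18.7 FPKM under si-152. One si-NC library lay between the si-152 libraries, and the log2 difference was 0.26 with a standard error of 0.20. SMAD3 (ENSG00000166949.15, chromosome 15, 67063763 to 67195195, plus strand) had 33.6 and 28.7 FPKM under si-NC and 35.8 and 32.0 FPKM under si-152. Its groups overlapped, and the log2 difference was 0.12 with a standard error of 0.17. SMAD3 exceeded SMAD2 in every library, by a ratio of 1.71 and 1.99 in si-NC and 1.62 and 1.71 in si-152. SMAD4, the partner that both need (ENSG00000141646.13, chromosome 18, 51028394 to 51085045, plus strand), had 6.40 and 5.26 FPKM under si-NC and 7.06 and 5.91 FPKM under si-152. Its log2 difference was 0.13 with a standard error of 0.20. The pair differences of SMAD4 were 0.12 and 0.14, close to each other and smaller than the gap between the replicates of either group.

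The inhibitory SMADs went in opposite directions, and both had groups that did not overlap. SMAD7, which blocks TGFBR1 and brings SMURF ligases to it (ENSG00000101665.9, chromosome 18, 48919853 to 48952052, minus strand), had 1.18 and 1.52 FPKM under si-NC and 1.93 and 1.88 FPKM under si-152. Both si-152 libraries stood above both si-NC libraries, and the log2 difference was 0.31 with a standard error of 0.20. SMAD6, which acts mainly on the BMP branch (ENSG00000137834.14, chromosome 15, 66702228 to 66782848, plus strand), had 3.995 and 4.33 FPKM under si-NC and 3.64 and 3.97 FPKM under si-152. Its si-152 replicate 2 lay just under si-NC replicate 1, by less than the replicates of either group differed, and the log2 difference was -0.10 with a standard error of 0.19. With size factors or quantile normalization the SMAD6 groups overlapped, while those of SMAD7 still did not. The ratio of SMAD6 to SMAD7 was 3.39 and 2.85 in si-NC and 1.89 and 2.11 in si-152. Both si-152 libraries lay above both si-NC libraries in 16.5% of all tested genes and below them in 13.9%, so such a separation was common with 2 libraries a group. Of the 10 genes, SMAD7 and SMURF2 were separated upward and SMAD6 downward on the deposited scale. With quantile normalization TGFBR1, SMAD4, SMAD7 and SMURF2 were separated upward and ID1 downward, and with size factors SMAD7 and SMURF2 upward. The shares of 16.5% and 13.9% hold for the deposited scale only, and those under the other scalings were not computed.

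The start of SMAD6 carries the palindrome that SMAD proteins bind in vitro, GTCTAGAC. The search covered 250 bases before and 50 after each RefSeq start (GRCh38.p14) and both strands, which read the same for this word. The word begins 12 bases before the RefSeq start of SMAD6, and the GENCODE v29 start given above, 66702228, falls within it. SMAD6 was the only one of the 10 genes whose windows held the word. It is therefore shown in capitals within chr15:66702213-66702242 of the plus strand.
SMAD6 start: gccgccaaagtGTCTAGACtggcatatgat
Of 35116 such windows 71 (0.202%) held the word, and none of the other 24 windows of the 10 genes did. The shorter word CAGAC, or GTCTG on the other strand, was in at least 1 window of TGFBR1, SMAD3, SMAD7, SMURF1 and SMURF2, which is 5 of the 10 genes, and in at least 1 window of 49.99% of all genes. The BMP-type word GGCGCC was in at least 1 window of TGFBR1, SMAD2, SMAD3 and SMAD4. That is 4 of the 10 genes, beside 22.0% of all genes. A gene with more windows has more chances to hold a word, and TGFBR1 had 8, SMAD3 5 and SMAD7 3. GGCGCC was in 1 of 8 windows of TGFBR1, 1 of 5 of SMAD3, 2 of 2 of SMAD2 and 1 of 1 of SMAD4. Of all windows 19.2% held it. CAGAC was in 4 of 8 windows of TGFBR1, 3 of 5 of SMAD3 and 2 of 3 of SMAD7. It was in the single windows of SMURF1 and SMURF2, and in 45.3% of all windows. ID1 held none of the 3 words within this window.

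The study examined miRNAs with complementarity to LINC00152, among them miR-185-3p, miR-4722-5p and miR-632. Small RNAs of this kind pair with mRNAs through their seed, bases 2 to 8, so the longest annotated 3′-UTR of each gene (GENCODE v29, GRCh38) was searched for the complement of the seed. A mature miR-632 sequence was not used here. The mature miR-185-3p sequence (RefSeq, GRCh38.p14, chr22:20033188-20033209, plus strand) is shown with its seed in capitals, and below it the words that match it in SMAD7, SMAD6 and SMAD3, in capitals within 25 bases, since the inhibitory SMADs differed in direction and both carry the word.
miR-185-3p: aGGGGCUGgcuuuccucugguc
SMAD7, chr18:48920658-48920682, minus strand: ccttcctgcCAGCCCCtgccattgt
SMAD7, chr18:48920574-48920598, minus strand: ctgccggggCAGCCCCctcacagta
SMAD6, chr15:66781610-66781634, plus strand: ccagagacaCAGCCCCcacggacaa
SMAD3, chr15:67191024-67191048, plus strand: ttcccagccCAGCCCCgccccgccc
The SMAD7 words begin at bases 699 and 783 of a 3′-UTR of 1519 bases, in exon 4 of 4. The SMAD6 word begins at base 84 of 1313, also in exon 4 of 4, and the SMAD3 word at base 497 of 4659, in exon 9 of 9. CAGCCCC was in the 3′-UTR of 21.8% of 10757 tested genes, whose median log2 difference was 0.06, against 0.0097 for those without it. Of the 3 genes with the word, SMAD7 and SMAD3 were higher and SMAD6 lower in si-152, and the other 7 genes had none. The 3′-UTRs searched ran from 483 bases in SMURF2 to 32870 bases in SMAD2. Whether a gene holds a word therefore also depends on the length annotated for it. The miR-4722-5p word CTCCTGC was in the 3′-UTR of TGFBR1, SMAD2, SMAD4, SMAD7 and SMURF1, and in 26.5% of tested genes. SMAD2 held 4 such words, the first at base 11340 and the last at base 27311 of its 3′-UTR. The median log2 difference was 0.05 for genes with CTCCTGC and 0.01 for those without. A longer 3′-UTR has more places for a word of 7 bases. Transcript length itself moved with the siRNA difference across genes, at a Spearman correlation of 0.28. The part of length in the medians for CAGCCCC and CTCCTGC was not tested.

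Both SMURF ligases had higher values in si-152. SMURF1 (ENSG00000198742.9, chromosome 7, 99027438 to 99144100, minus strand) had 9.10 and 5.92 FPKM under si-NC and 9.62 and 7.66 FPKM under si-152. The groups overlapped, and the log2 difference was 0.20 with a standard error of 0.23. SMURF2 (ENSG00000108854.15, chromosome 17, 64542295 to 64662068, minus strand) stood at 33.8 FPKM in the second si-NC library but was listed at 0 in the first, and had 55.0 and 40.4 FPKM under si-152. Because the only other si-NC value lies near those of si-152, no fold against the listed 0 is given. In pair 2 the log2 difference was 0.25. With that 0 treated as missing, the fitted difference was 0.47, with si-NC resting on 1 library, and SMURF2 was no longer called. It was also not called with size factors, with quantile normalization or without a filter. The ratio of SMURF2 to SMURF1 was 5.70 in si-NC replicate 2 and 5.71 and 5.27 in si-152, so outside the listed 0 the ligases kept a similar proportion.

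In 6 genes above 20 FPKM in some library, another library was at exactly 0, SMURF2 and ITGB1 among them. ITGB1, an integrin subunit in common use by adherent cells, was listed at 0 for si-NC replicate 2, while its other libraries lay between 144.1 and 156.5 FPKM. Of the 2869 stretches of 50 bases in the coding transcript of SMURF2, 21 (0.732%) also occur in annotated transcripts of 4 other genes. In SMAD4 the share was 8.26%, all with AC091551.1, and in SMAD2 it was 1.12%. It was 0 in the other 7 genes. How shared reads were counted is not given in the sources used here.

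ID1 (ENSG00000125968.8, chromosome 20, 31605283 to 31606515, plus strand), an inhibitor of differentiation factors that heterodimerizes with E proteins, had 474.1 and 600.0 FPKM under si-NC and 388.2 and 527.9 FPKM under si-152. One si-152 library lay between the si-NC libraries. Its log2 difference was -0.24 with a standard error of 0.26, and the pair differences were -0.29 and -0.18. With quantile normalization the difference was -0.09 and the groups did not overlap. ID2 and ID3, of the same family, did not keep 1 direction in both pairs. ID2 had 30.0 and 24.0 FPKM under si-NC and 23.9 and 27.0 FPKM under si-152, a log2 difference of -0.07 (standard error 0.18). ID3 had 1.93 and 1.89 FPKM under si-NC and 1.13 and 2.12 FPKM under si-152.

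The size of these differences depended on single libraries. With 1 library left out, the log2 difference lay between 0.03 and 0.24 for TGFBR1, 0.05 and 0.47 for SMAD2, 0.0091 and 0.23 for SMAD3, 0.01 and 0.25 for SMAD4, and -0.07 and 0.47 for SMURF1. For these 5 genes the lowest value came without si-NC replicate 2 and the highest without si-NC replicate 1. SMAD7 also ranged over these libraries, from 0.20 without si-NC replicate 1 to 0.42 without si-NC replicate 2. For TGFBR2, SMAD6 and ID1 the extremes came without a si-152 library, with TGFBR2 at -0.17 without si-152 replicate 1 and 0.35 without si-152 replicate 2. SMAD6 was at -0.05 without si-152 replicate 1 and -0.15 without si-152 replicate 2, and ID1 at -0.015 and -0.46.

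Differences between the replicates were larger than those between the siRNAs for most of the 10 genes, as for most of all tested genes. TGFBR1, TGFBR2, SMAD2, SMAD3, SMAD4 and SMURF1 were lower in replicate 2 than in replicate 1 in both groups, as were 44.2% of all tested genes. SMAD6 and ID1 were higher in replicate 2 in both groups, as were 29.4% of all tested genes. The mean log2 difference of replicate 2 minus replicate 1 was -0.49 for TGFBR2, -0.42 for SMURF1 and -0.32 for SMAD2, and 0.39 for ID1. It exceeded the siRNA difference in size in 7 of the 10 genes, against 63.1% of all tested genes. All 6 genes lower in replicate 2 were higher in si-152, and SMAD6 and ID1 were higher in replicate 2 and lower in si-152. How many of all tested genes had such opposite signs was not counted, so the relation cannot be called particular to these genes. SMAD7 stood outside this relation, with si-152 replicates that were nearly equal, and SMURF2 was not placed in it because of the listed 0.

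**Figure D3:**
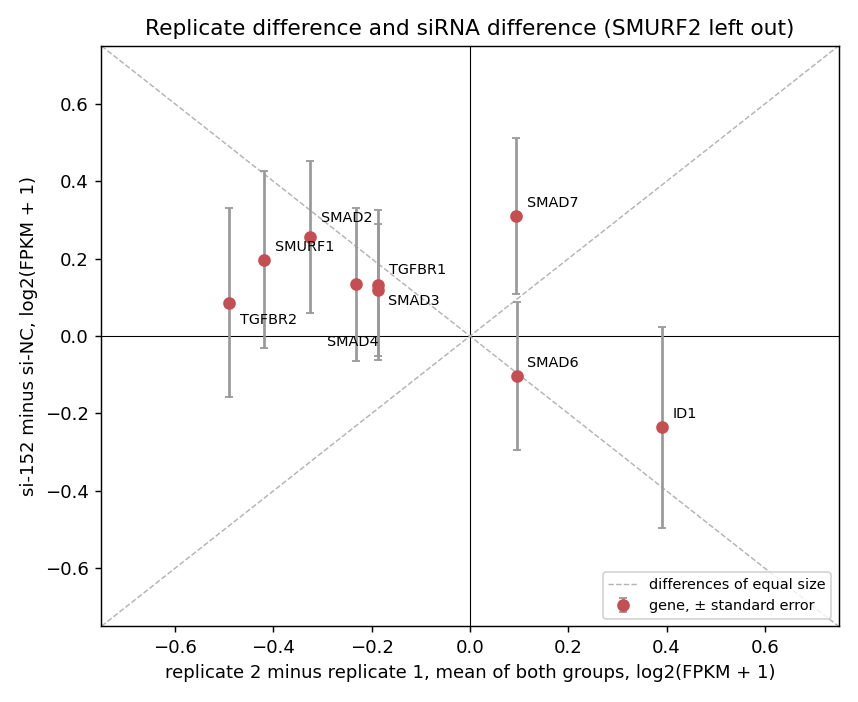
Replicate difference (horizontal, mean over both groups) against siRNA difference (vertical, with standard error) for 9 genes, both in log2(FPKM + 1). Along the dashed lines the differences are equal in size. TGFBR2, SMURF1, SMAD2, SMAD4, SMAD3 and TGFBR1 lie at upper left, ID1 and SMAD6 at lower right, and SMAD7 alone at upper right.

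Transcript length moved with both differences. Across 10776 tested genes matched to GENCODE v29, the Spearman correlation of the longest coding transcript with the siRNA difference was 0.28, and with the replicate difference -0.67. These are correlations across genes of the same 4 libraries, and genes are not independent replicates. The genes were split by length into 5 groups of equal size. In the group with the longest transcripts, the median log2 difference was 0.08 and 49.7% of genes were higher in both pairs. In the shortest group the median was -0.09 and 17.2% were higher in both. TGFBR1, SMAD2, SMAD3, SMAD4 and SMURF1 belong to the longest group, TGFBR2 and SMAD7 to the next, SMAD6 and SMURF2 to the middle one, and ID1, with 1233 bases, to the shortest. In the middle group the median was 0.03, and SMAD6 was below it at -0.10. TGFBR2 and SMAD7 were above the median of their group, 0.06, and all 5 genes of the longest group were above its median. GC content had a Spearman correlation of 0.03 with the siRNA difference (0.10 in pair 1 and -0.07 in pair 2) and of 0.45 with the replicate difference. The part of transcript length and GC content in the differences of the 10 genes was not tested.

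**Figure D4:**
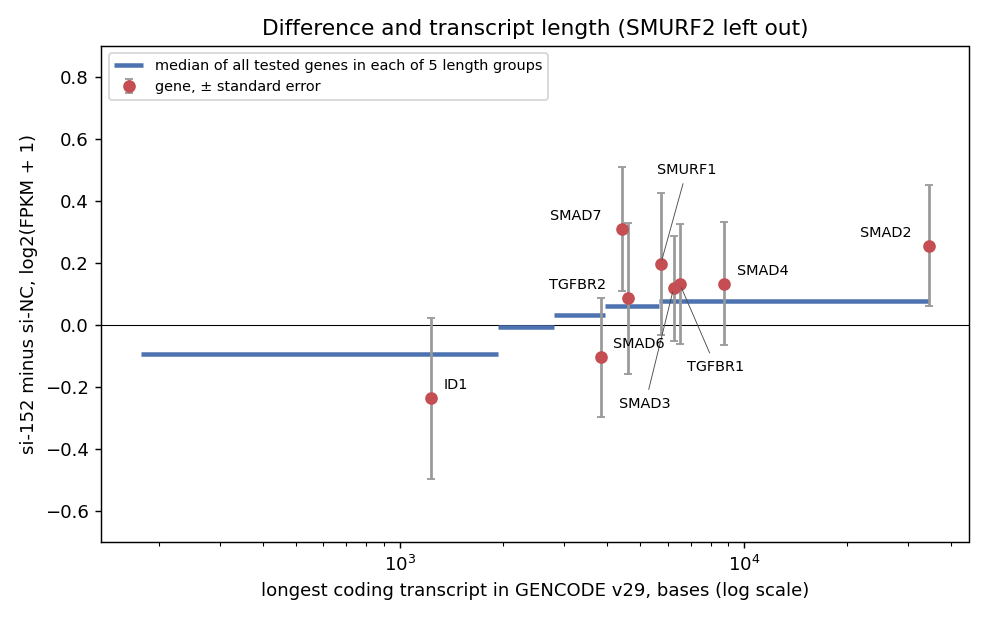
siRNA difference in log2(FPKM + 1), with standard error, against the length of the longest coding transcript for 9 genes. Blue lines are the medians of all tested genes in each of 5 groups by length, which go from -0.09 in the shortest to 0.08 in the longest. The 7 genes with a positive difference lie above the line of their group and ID1 and SMAD6 below.

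The wider pathway was described with 91 further genes in 8 lists by role, of which 68 passed the filter on low values. Of these, 2 were called, both higher in si-152, which is 2.94% against 1.66% of all tested genes called in either direction. At an adjusted p under 0.05 by limma the count was 0. The median log2 difference of the 68 genes was 0.03, against 0.02 over all tested genes, and 27 were higher and 15 lower in both pairs. The called genes were SKI and LTBP2. SKI, a repressor that binds SMADs in the nucleus, had 10.1 and 8.50 FPKM under si-NC and 17.7 and 11.9 FPKM under si-152. Its log2 difference was 0.59, with a standard error of 0.22 and an adjusted p of 1.00 by limma. LTBP2, a matrix protein related to the latent TGF-β binding proteins, had 1.28 and 0.978 FPKM under si-NC and 2.29 and 2.19 FPKM under si-152. Its log2 difference was 0.61, with a standard error of 0.20 and an adjusted p of 0.904 by limma. Both genes had si-152 libraries above both si-NC libraries. The SKI call was lost with size factors, with quantile normalization and without a filter, at log2 differences of 0.58, 0.58 and 0.59. Both calls were lost without si-NC replicate 2, at 0.48 for SKI and 0.50 for LTBP2, and without si-152 replicate 1, at 0.33 and 0.58. The SKI difference was 0.86 without si-152 replicate 2.

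Among ligands and their activators, 10 of 20 genes were tested and 0 were called. GDF15, a stress-induced member of the ligand superfamily, had the highest level, with 2604 and 2542 FPKM under si-NC and 1620 and 2471 FPKM under si-152. Its log2 difference was -0.36 with a standard error of 0.38, and it came almost wholly from si-152 replicate 1. LTBP3, which holds latent TGF-β in the matrix, had 49.6 and 53.3 FPKM under si-NC and 51.7 and 55.1 FPKM under si-152. Of the other receptors and co-receptors 8 of 11 were tested and 0 called. ACVR1, a BMP type I receptor, had a log2 difference of -0.02 (standard error 0.19), and ACVR1B, the activin type I receptor, one of -0.09 (standard error 0.19).

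SMAD1 and SMAD5, the receptor-activated SMADs of the BMP branch, had small positive log2 differences. SMAD1 had 9.90 and 7.95 FPKM under si-NC and 10.7 and 9.14 FPKM under si-152, a log2 difference of 0.14 (standard error 0.19). SMAD5 had 9.91 and 7.04 FPKM under si-NC and 10.97 and 8.26 FPKM under si-152, a log2 difference of 0.17 (standard error 0.22). Both were higher in si-152 in both pairs and lower in replicate 2 in both groups. Without si-NC replicate 2 the log2 differences were -0.0029 for SMAD1 and -0.05 for SMAD5. Neither was called.

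All 13 other ubiquitin ligases and deubiquitinases were tested and 0 were called, with a median log2 difference of 0.04. STUB1, a chaperone-associated ligase, had a log2 difference of -0.18 (standard error 0.24), or 0.16 without si-152 replicate 1, and UCHL5, a deubiquitinase that binds SMAD7, one of 0.04 (standard error 0.18). Of 12 repressors and adaptors 11 were tested, and SKI was the one called. TGIF1, a nuclear corepressor, had a log2 difference of 0.06 (standard error 0.18). FKBP1A, which holds TGFBR1 inactive, had one of -0.07 (standard error 0.18). Of 9 DNA-binding partners and coactivators 8 were tested and 0 called, and ATF3 and JUNB, stress and growth factor response genes, had log2 differences of -0.07 (standard error 0.18) and 0.06 (standard error 0.20).

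Target genes showed no common direction. Of 14 TGF-β target genes 11 were tested and 1 was called, LTBP2, and their median log2 difference was -0.01, with 3 higher and 4 lower in both pairs. CDKN1A, the cell cycle inhibitor p21, had 164.1 and 155.6 FPKM under si-NC and 139.7 and 142.2 FPKM under si-152, a log2 difference of -0.18 (standard error 0.18). TIMP1, an inhibitor of matrix metalloproteinases, had a log2 difference of 0.14 (standard error 0.22). Of 9 BMP target genes 5 were tested and 0 called, with a median of -0.07. MSX1, a homeobox gene, had 67.3 and 63.2 FPKM under si-NC and 65.4 and 74.5 FPKM under si-152, a log2 difference of 0.10 (standard error 0.17).

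**Figure D5:**
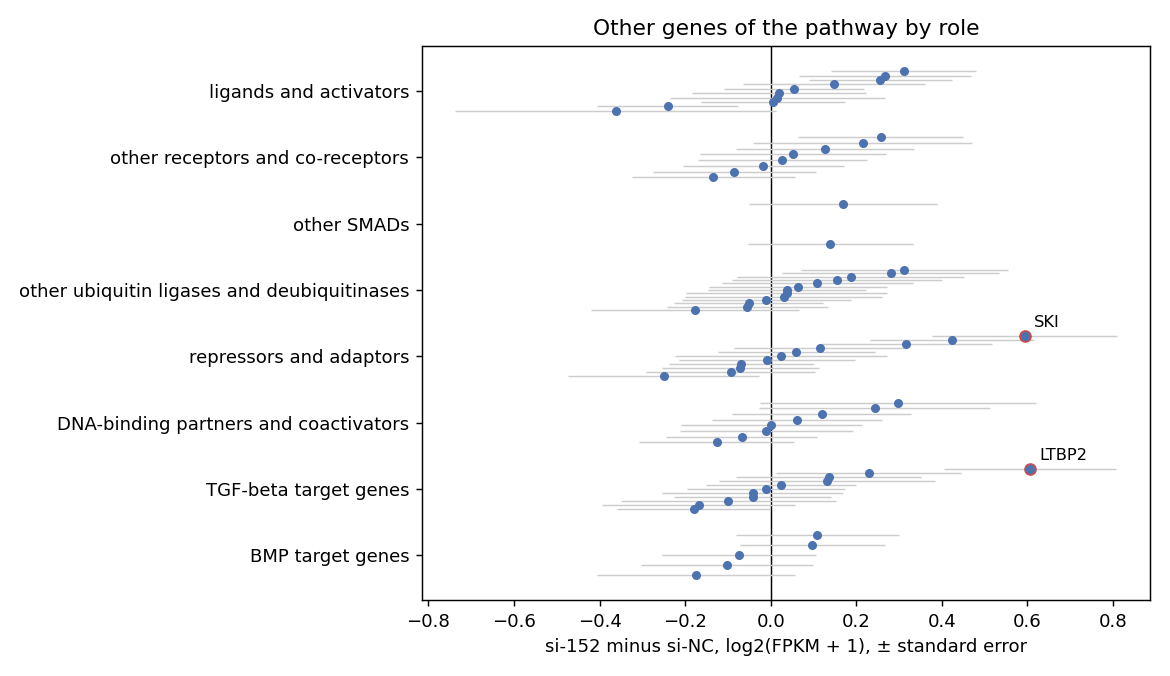
Difference of si-152 minus si-NC in log2(FPKM + 1), with standard error, for the 68 tested genes of 8 lists by role. Red marks are the called genes, SKI at 0.59 and LTBP2 at 0.61, and the other genes lie between -0.36 for GDF15 and the called ones.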

How the data were processed

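HCT116 cells received si-NC or si-152 for 36 h, with 2 replicates per group, and groups and replicate numbers came from the sample labels. Each library has a deposited table that lists gene symbols with 1 value each. The unit, the annotation and the tool that made the values are not given in the sources used here. The processing notes of the submitters (the authors) name Trimmomatic, TopHat, HISAT2, HTSeq, DESeq and GRCh38. The deposited values were read as FPKM because of their decimals, exact zeros and unequal sums, and how the authors computed them is not given. Low values showed no common step of single reads (at most 13 of 567 genes shared a ratio between libraries), so the depth is unknown and no counting error is given.

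The authors tested read counts with DESeq. Here, log2(FPKM + 1) without further scaling was tested with limma 3.58.1 in R 4.3.3 (mean-variance trend, Benjamini-Hochberg adjustment) over 11222 genes, those that reached 1 FPKM in 2 libraries or more. Summaries used Python 3.11.15 and pandas 2.3.3. Date-like symbols (28) and the rows of 2 repeated symbols were kept as separate genes. CCN2 was read under its older symbol CTGF.

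The 10 genes and the pathway lists were chosen with earlier results of these data known. From the lists, the text names each tested gene with an unadjusted p under 0.05 and the 2 tested genes of highest mean FPKM in each list, and from the marker lists the highest gene. ID3, ITGB1, AKAP12, CDCP1, HNRNPD and HNRNPC were named after their values were seen. Promoter windows and miRNAs came from RefSeq (GRCh38.p14) and gene positions and 3′-UTRs from GENCODE v29 (GRCh38), where all 10 genes and 96.0% of tested genes matched. Alternatives covered the pseudocount, the filter, the scaling, the replicate number as a block, each library left out, and listed zeros.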

Additional observations from a re-analysis of the deposited data

How the results depend on the processing

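Size factors, quantile normalization and a pseudocount of 0.1 left the sign of the log2 difference in each of the 10 genes as it was. The filters and the block cannot move that value, and listed zeros as missing move it for SMURF2 alone. With a library left out, TGFBR2 and SMURF1 had the opposite sign in 3 of 40 values, and 11 of the 18 named pathway genes in 19 of 72. At least 1 FPKM in every library removed SMURF2 through its listed 0, so it was not tested there, and 0 of the genes left were called. Without si-NC replicate 1 its log2 difference was 0.47. Its call was lost without a filter, with size factors, with quantile normalization and with listed zeros as missing. In each of these settings 0 of the 10 genes were called. Leaving out each library gave 0 to 1. Of the other pathway genes, 1 in place of 2 was called without a filter, with size factors and with quantile normalization. At least 1 FPKM in every library removed LTBP2, at 0.978 FPKM in si-NC replicate 2, and SKI was still called. The median log2 fold change of the pathway genes ran from -0.072 (without si-NC replicate 2) to 0.16 (without si-NC replicate 1). Its sign thus depends on the libraries used. Over all genes, leaving out a library gave 107 to 228 genes called higher and 103 to 367 lower, against 67 and 119. Those fits leave a group with 1 library, which is assumed to vary like the others.

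With the replicate number as a block, 79 genes were called higher and 130 lower, 78 passed an adjusted p under 0.05 by limma against 2 without the block, and the calls of SMURF2, SKI and LTBP2 stood. Across genes, libraries with the same number deviated together (correlation 0.52), but with 2 libraries a group the numbers cannot be shown to pair them. A pseudocount of 0.1 gave 99 higher and 161 lower, the calls of SMURF2, SKI and LTBP2 included. Levels of a few FPKM, such as those of SMAD7 and LTBP2, rest on an unknown number of reads.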
